A study of Mus musculus with 10 samples.

Results

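Ribosomal protein genes encode the protein subunits of the large (Rpl) and small (Rps) parts of the ribosome, and their promoters were followed here in open chromatin of MC3T3-E1 cells, a mouse osteoblast line. A peak was counted as a member when its nearest-gene name was Rpl or Rps followed by a number, with an optional a, x or y, or was Rplp0, Rplp1, Rplp2 or Rpsa. Members were 97 of 23745 peaks in the list of cells given TNFa and BMP4, 99 of 23288 with TNFa, 98 of 24525 with BMP4 and 105 of 26230 in untreated cells. RefSeq holds 76 genes that fit the rule, 46 of the large and 30 of the small subunit, and 70 of them had at least 1 peak. Of the 14471 windows present in all 4 lists, 66 were members. They belonged to 54 genes, and 55 of the windows, from 52 genes, lay at promoters.

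Accessibility came from ATAC-seq, which sequences the fragments that a transposase releases from open DNA. There were 4 groups of 2 libraries. Cells received TNFa and BMP4, TNFa alone, BMP4 alone, or neither (called none), all in medium with reduced serum. Each factor was used at 10 ng/ml, and BMP4 was given for 3 h. The TNFa exposure is 3 h in the sample labels and 30 min in the treatment protocol, and the titles of the TNFa libraries alone carry p65 with no reason given, so values against that group assume libraries made like the others. Another 2 libraries of sonicated DNA served as background. By the labels all libraries belong to 1 batch. Whether replicates were separate cultures is not stated, and the spread behind each p-value may be purely technical.

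Every growing cell makes ribosomal proteins in step with ribosomal RNA, and their genes are therefore often treated as constitutively active. Their promoters are short and mostly lack a TATA box. Transcription starts at a C within a run of pyrimidines, the 5' terminal oligopyrimidine tract, which places translation of these mRNAs under the control of mTOR. Factors of the ETS family, YY1 and Sp1 are among those known to bind such promoters. The signalling pathways applied here act through other factors, NF-kB for TNFa and SMAD proteins for BMP4.

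The sequences that follow show the starts of the most and the least accessible promoters of the group, each from 80 bases before to 20 bases from the start of the gene, 5' to 3' on the gene's strand, as given by RefSeq for GRCm38.p6, whose coordinates are those of mm10. Capitals mark the ETS core CCGGAAG or its reverse complement CTTCCGG. The first 3 belong to the windows with the highest levels, the last 3 to those with the lowest. The stretches of Rpl36a and Rps4x overlap their windows. Those of Rpl10, Rpl13a, Rps21 and Rpl24 lie outside the windows that rank them, so their bases are not those measured. Within these stretches the ETS core stands at Rps21 only, at -26 from the start. They lie at chrX:74270736-74270835 (plus strand), chr7:45128726-45128825 (minus), chr2:180257299-180257398 (plus), chrX:134585574-134585673 (plus), chr16:55966195-55966294 (plus) and chrX:102189372-102189471 (minus).
Rpl10: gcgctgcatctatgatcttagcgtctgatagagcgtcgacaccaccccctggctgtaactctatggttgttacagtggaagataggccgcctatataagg
Rpl13a: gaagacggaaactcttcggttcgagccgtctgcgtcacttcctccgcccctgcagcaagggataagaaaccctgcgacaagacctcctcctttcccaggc
Rps21: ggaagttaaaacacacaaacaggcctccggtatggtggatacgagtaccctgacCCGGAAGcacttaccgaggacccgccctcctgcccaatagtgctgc
Rpl36a: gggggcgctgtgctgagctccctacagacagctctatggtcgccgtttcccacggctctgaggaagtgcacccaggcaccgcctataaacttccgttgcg
Rpl24: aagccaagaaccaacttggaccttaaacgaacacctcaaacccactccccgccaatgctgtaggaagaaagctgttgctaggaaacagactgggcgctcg
Rps4x: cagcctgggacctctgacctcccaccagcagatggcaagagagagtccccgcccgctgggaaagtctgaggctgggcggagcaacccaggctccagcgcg

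Another 5 promoters show the pyrimidine run. In these, capitals mark the C at the start of the gene with the pyrimidines that follow it. Rps6 carries a run of 9 bases, Rplp2 of 5, Rpl15 of 13, Rps18 of 9 and Rps27 of 7. Rpl15, Rps18 and Rps27 are shown because no peak carried their names in any list, which is taken up after the counts of genes. The ETS letters also occur in the Rpl15 and Rps18 stretches and are left in lower case there. The stretches lie at chr4:86857348-86857447 (minus), chr7:141447571-141447670 (plus), chr14:18270967-18271066 (minus), chr17:33955646-33955745 (minus) and chr3:90213629-90213728 (minus).
Rps6: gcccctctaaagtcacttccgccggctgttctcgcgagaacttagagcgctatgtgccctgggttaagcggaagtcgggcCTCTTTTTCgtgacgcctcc
Rplp2: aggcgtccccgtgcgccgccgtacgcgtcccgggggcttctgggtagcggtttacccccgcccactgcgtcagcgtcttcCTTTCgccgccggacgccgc
Rpl15: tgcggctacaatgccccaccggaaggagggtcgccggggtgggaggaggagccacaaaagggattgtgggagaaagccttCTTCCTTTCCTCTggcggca
Rps18: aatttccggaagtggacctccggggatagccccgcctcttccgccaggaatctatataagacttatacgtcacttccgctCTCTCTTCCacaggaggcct
Rps27: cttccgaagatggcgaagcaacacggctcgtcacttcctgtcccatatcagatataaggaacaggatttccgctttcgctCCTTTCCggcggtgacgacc

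The RefSeq promoter table covers 250 bases before to 50 after each start and held 56 of the 76 genes. Counted on both strands, the ETS core CCGGAAG stood in the promoter of 41.1% of the ribosomal protein genes, against 9.93% of all 27025 genes in the table. A C at the start followed by at least 4 pyrimidines was found in 23.2% of the ribosomal protein genes, against 3.01% of all genes. With the C anywhere within 10 bases of the start, the shares were 60.7% and 34.4%. The GC box GGGCGG stood in 60.7% against 38.2%, the YY1 core AAGATGGC in 8.93% against 3.19%, and the letters TGACGTCA of the cyclic AMP response element in 8.93% against 2.03%. The TATA box letters TATAAA were in 10.7% against 15.7%, and CCAAT in 32.1% against 41.1%. For the pathways applied to the cells, the NF-kB site (GGGA, any base, then TTTCC) was in 0% of the ribosomal protein promoters against 0.466%, and the BMP-responsive element GGCGCC in 19.6% against 13.4%. No motif of this list contains another. The absence of a match says only that these letters are not in this window.

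All genes in the table are a wide comparison, since most of them had no peak. Among genes with a promoter window in all 4 lists, the ETS core stood in 37.1% of 35 ribosomal protein genes and in 22.7% of 4266 other genes, and the run at the start in 25.7% and 2.81%. With its C anywhere within 10 bases of the start, the run was in 54.3% and 36.5%. Among these genes the GC box was in 71.4% of the ribosomal protein genes and 76.0% of the others, and GGCGCC in 17.1% and 26.8%. TATAAA was in 8.57% of the ribosomal protein genes and 7.83% of the others, the other way round from the comparison with all genes, and CCAAT in 42.9% and 48.6%. Median GC content was 57.0% in the ribosomal protein promoters and 61.7% in the others. Levels are given in CPM, the tags of a window as counts scaled to an equal total over the tested windows of each library and corrected by a trimmed mean of M-values. For windows whose gene is in the promoter table, motifs were read from the gene's entry and levels from the window. Some windows, such as those of Rpl10, lie outside that entry. The level of a window did not follow the run exactly at the start of its gene. The median was 32.3 CPM in 10 windows with it and 34.2 in 27 without. With the ETS core the median was 44.9 CPM in 14 windows (21.9 to 129), and without it 33.2 in 23 windows (11.4 to 178), so the first range lay within the second.

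The 8 ATAC libraries held 16.5 to 30.1 M tags, with between 592184 and 1575030 tags inside the tested windows. Tags of a ribosomal protein promoter window ran from 3 to 539 per library. All windows had 125 bp, so their levels compare per length. Each group was counted at the coordinates of its own list. Only 14 of the 66 member windows had identical coordinates in all 4 lists. The untreated replicate 2 and the BMP4 replicate 2 stood apart from the other libraries. Over the 55 ribosomal protein promoters, whose windows share a library and its depth, these libraries correlated at 0.948 with each other, whereas untreated replicates correlated at 0.406 and BMP4 replicates at 0.539. Replicates of TNFa and BMP4 together correlated at 0.747 and those of TNFa at 0.604. BMP4 replicate 1 correlated at 0.946 with replicate 1 of the combined treatment. Untreated replicate 1 correlated at 0.941 with the second library given both factors. These promoters thus did not sort the libraries by their labels. Over all windows these 2 pairs correlated at 0.933 and 0.904, and the libraries that stood apart at 0.954. Replicates there correlated at 0.594 in untreated cells, 0.399 with BMP4, 0.662 with TNFa and 0.751 with both factors. Whether each of the 8 libraries carries the right label was not tested. Every value of the untreated, BMP4 and combined groups rests on it, as do comparisons with them. Of the osteoblast markers, 10 of 12 had a peak in all 4 lists, among them Runx2, Sp7 and Col1a1, and Alpl had none in any list. Markers of other cell types had peaks in all 4 lists for 1 of 6 haematopoietic genes (Csf1r), 2 of 4 endothelial, 0 of 4 muscle and 3 of 4 epithelial genes.

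The first comparison asked how constant the peaks of these genes were across the groups. Most member peaks lay at promoters: 72.2% with TNFa and BMP4, 74.7% with TNFa, 70.4% with BMP4 and 70.5% in untreated cells, against 34.4%, 34.96%, 31.8% and 32.0% of all peaks of the same lists. A promoter peak was called for 63 genes with both factors, 67 with TNFa, 61 with BMP4 and 66 in untreated cells. Of the 69 genes with a promoter peak in any list, 57 had one in all 4 (82.6%), 37 of the large and 20 of the small subunit, against 5663 of 8358 (67.8%) over all genes. The share was 42.6% of 54 genes for mitochondrial ribosomal proteins, 66.7% of 30 for proteasome subunits and 63.9% of 61 for the respiratory chain. The authors called peaks once per group on pooled replicates, so a list has no replicate and these shares have no test. With the lists cut to the length of the shortest, the number of genes with any peak in all 4 lists was 60, as it was uncut.

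The genes that missed a list did so in different ways. Rpl11, Rps7, Rps10, Rps13 and Rps24 lacked a promoter peak in the BMP4 list only. At the place of the Rps13 promoter the other lists held 17 and 58 tags with both factors, 18 and 46 with TNFa, and 70 and 31 in untreated cells. Rpl11, a protein of the 5S ribonucleoprotein particle that binds Mdm2, had 12 and 43 tags with both factors, 13 and 37 with TNFa, and 48 and 11 in untreated cells. For comparison, the median ribosomal protein promoter peak held 61.5, 64 and 102 tags in these lists, summed over both replicates, so Rps13 lay near the median and Rpl11 below it. Rpl36 had a promoter peak in the TNFa and untreated lists, Rpl4 and Rpl6 in the BMP4 and untreated lists, and Rpl8 in the TNFa and BMP4 lists. The stretch behind an uncalled promoter has no deposited value, so a level below the calling threshold and a closed promoter cannot be told apart.

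A further 6 genes, Rpl7a, Rpl9, Rpl15, Rps18, Rps25 and Rps27, had no peak under their own name. In 5 of them a peak did cover the promoter and carried the name of a neighbouring gene. Peaks in the Rpl15 promoter were named Nkiras1, with 31 and 50 tags with both factors, 35 and 33 with TNFa, 39 and 172 with BMP4, against 90 and 114 in untreated cells. They lay upstream of the start, and the Rpl15 pyrimidine run shown above was not under them. Peaks at the Rps18 promoter were named Vps52, with 73 and 54 tags with both factors, 49 and 36 with TNFa, 96 and 77 with BMP4, against 67 and 65 in untreated cells. The Rps18, Rpl15, Rpl7a (named Med22) and Rps27 (named Rab13) promoters held such a peak in all 4 lists. Those at Rps18 and Rps27 also lay upstream of the start, so the runs shown for these genes were not under them. Rpl9 had one in the lists of both factors and of BMP4 only, where its peaks were named Lias. Tags here are raw counts and are not scaled to library depth.

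Peaks named for a neighbour also stood at the promoters of Rps28 (Ndufa7, in all lists but that of BMP4), Rpl18 (Sphk2, with both factors and in untreated cells) and Rps2 (Snhg9, in untreated cells). In all, 24 of the 47 missing pairs of gene and list were filled in this way, in 8 genes. With these counted, 62 of the 76 genes had a promoter peak in all 4 lists, against 57 by name. Rps25 had none under either name. The rest of the values keep to the deposited names.

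The second comparison asked where the ribosomal protein promoters stood among all open promoters. Their levels were below those of other promoters: the median over 8 libraries was 38.8 CPM, against 58.2 in the 5852 other promoter windows shared by all lists. Ranked by the mean of 8 libraries, the median of the 55 windows lay at percentile 28.3 of promoters. Ranked within each library, it averaged 32.9 with both factors, 39.0 with TNFa, 29.0 with BMP4 and 38.9 in untreated cells. Over all promoter peaks of a list, matched or not, the members' median percentile by tags was higher. It was 40.1 with both factors, 46.5 with TNFa, 32.7 with BMP4 and 42.4 in untreated cells. Of the 55, 18 were above the promoter median, 1 was in the top 10% and 8 were in the bottom 10%. By library, the median of the ribosomal protein windows was 26.4 and 48.9 CPM with both factors, 30.7 and 55.1 with TNFa, 30.5 and 33.1 with BMP4, against 46.1 and 36.1 in untreated cells. The other promoters had medians between 50.8 and 55.1 in every library. The ribosomal protein median was thus below that of other promoters in 7 of the 8 libraries and equal to it in TNFa replicate 2.

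On the log2 scale the members' median minus that of other promoters was -0.53 ± 0.54 with both factors, -0.37 ± 0.53 with TNFa, -0.66 ± 0.05 with BMP4 and -0.34 ± 0.21 in untreated cells (mean ± SD, n = 2 libraries each). Differences between the groups were smaller than the spread between replicates of TNFa and of the combined treatment. Large subunit promoters averaged -0.43 and small subunit promoters -0.52 over the 8 libraries. The shortfall was shared with other housekeeping lists: ribosome biogenesis genes averaged -0.60, proteasome subunits -0.51, mitochondrial ribosomal proteins -0.43 and the respiratory chain -0.38, while translation factors averaged 0.05. In the authors' deposited tables, the log2 fold over the sonicated background had a median of 3.73 at ribosomal protein promoters with both factors, 3.71 with TNFa, 3.58 with BMP4 and 3.82 in untreated cells. For all promoters these authors' medians were 3.40, 3.40, 3.70 and 3.49, and background tags in the same windows had a median of 7 to 7.5 at ribosomal protein promoters and 9.5 over all promoters.

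**Figure D1:**
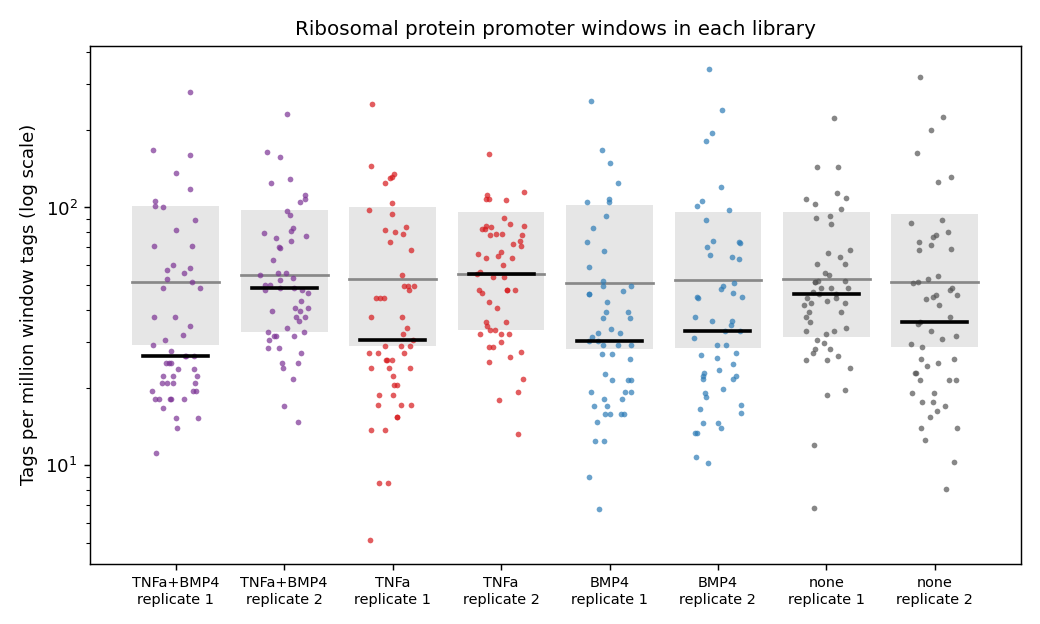
Level of each of the 55 ribosomal protein promoter windows (points, CPM, log scale) in the 8 ATAC libraries, ordered by group, with the other promoters drawn as their median and quartiles. The ribosomal protein medians range from 26.4 in replicate 1 of TNFa and BMP4 to 55.1 in TNFa replicate 2, while those of other promoters stay between 50.8 and 55.1.

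Within the group of genes the levels spanned 15.6-fold. The highest of these windows lay at -490 bp from the start of Rpl10, which encodes a late-joining protein of the large subunit (chrX:74270264-74270388). It had 279.6 and 229.7 CPM with both factors, 253 and 91.1 with TNFa, 259 and 48.3 with BMP4, against 222 and 37.5 in untreated cells. The combined treatment alone was high in both replicates. In the other groups replicate 1 was high and replicate 2 low. A second Rpl10 window, at -819 bp, had 160.0 and 111 with both factors, 129.8 and 79.1 with TNFa, 149 and 49.6 with BMP4, against 99.0 and 89.0 in untreated cells. In both windows the combined treatment lay above the untreated libraries without overlap.

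Rpl13a, a large subunit protein also described in translational silencing of inflammatory mRNAs, came next (chr7:45128859-45128983, at -176 bp). It had 106 and 83.0 CPM with both factors, 82.0 and 162 with TNFa, 108 and 343 with BMP4, against 51.2 and 322 in untreated cells. The 2 high values were those of the libraries that stood apart. Rps21 encodes a small subunit protein, and the ETS core shown above lies outside its window (chr2:180257162-180257286, at -155 bp). That window had 118 and 79.6 with both factors, 93.9 and 115 with TNFa, 92.5 and 239 with BMP4, against 66.6 and 225 in untreated cells. Its high values fell in the same libraries, opposite to Rpl10. Rps29, a zinc-binding protein of the small subunit (chr12:69159202-69159326), had 167 and 55.7 with both factors, 132 and 70.7 with TNFa, 167 and 120.2 with BMP4, against 60.6 and 126 in untreated cells. That window overlaps Rn7s1, a gene for the 7SL RNA, so its tags cannot be assigned to Rps29 alone.

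The lowest window was that of Rps4x, a small subunit protein encoded on the X chromosome (chrX:102189295-102189419, 34 bp downstream of the start). It had 11.1 and 17.1 CPM with both factors, 5.12 and 19.2 with TNFa, 9.03 and 10.2 with BMP4, against 6.83 and 12.5 in untreated cells. Rpl24 was next (chr16:55966305-55966429), with 15.3 and 14.8 with both factors, 8.54 and 33.6 with TNFa, 6.77 and 16.5 with BMP4, against 11.9 and 21.3 in untreated cells. Neighbours in the order of levels at this end did not differ beyond the spread of their libraries. Rpl36a (chrX:134585542-134585666) had 22.3 and 27.3 with both factors, 15.4 and 18.0 with TNFa, 15.8 and 14.6 with BMP4, against 25.6 and 19.1 in untreated cells, so the groups with 1 factor lay below the other two without overlap. Rpl37a averaged 22.6 and Rpl35 21.9 CPM over the 8 libraries. Of the 5 highest windows, 2 were on the X chromosome, and of the 5 lowest, 2 as well.

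**Figure D2:**
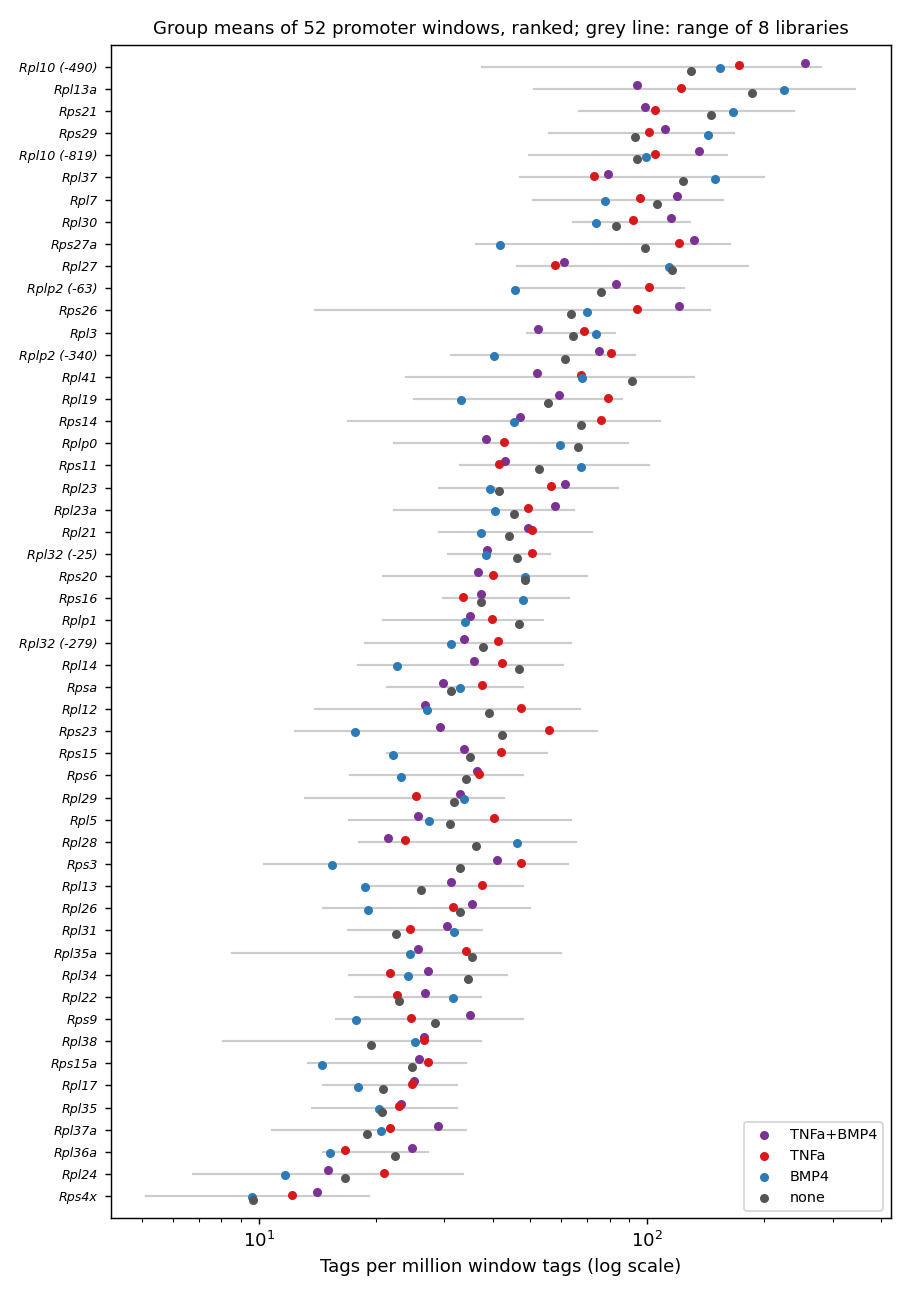
Group means (points, 2 libraries each) of 52 of the 55 promoter windows on a log scale of CPM, ranked by their mean log2 level, with the range of the 8 libraries as a grey line. The order runs from Rpl10 at -490 bp, mean 178, to Rps4x, mean 11.4, and the ranges of neighbouring windows overlap.

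The spread between libraries was wide and differed between members. The highest of the 8 libraries exceeded the lowest by a median of 3.16-fold, from 1.69-fold in Rpl3, an early assembling large subunit protein, to 10.4-fold in Rps26. Rpl3 had 55.6 and 48.9 CPM with both factors, 54.7 and 82.7 with TNFa, 73.3 and 74.4 with BMP4, against 52.1 and 76.5 in untreated cells. Rps26, a small subunit protein near the mRNA exit (chr10:128626774-128626898, at -330 bp), had 136 and 105 with both factors, 145 and 43.1 with TNFa, 124 and 15.9 with BMP4, against 114 and 14.0 in untreated cells. Replicate 1 was thus high in all 4 groups, and replicate 2 was high with both factors only. Over the 55 windows the range of the 4 group means had a median of 0.63 on the log2 scale and the pooled SD between replicates a median of 0.64. For other promoters these medians were 0.74 and 0.65. The range of group means was the larger of the pair in 31 of the 55 windows (56.4%), near the 59.7% of other promoters. A range of 4 means and an SD of replicates are different measures, so neither being larger shows or excludes a difference between groups.

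Replicates differed by more than 2-fold in 13 of the 55 windows with both factors, 17 with TNFa, 18 with BMP4 and 19 in untreated cells, or 23.6%, 30.9%, 32.7% and 34.5%. For other promoters the shares were 26.5%, 31.3%, 47.8% and 37.4%. In the libraries that stood apart, Rpl13a, Rpl27, Rpl28, Rpl41 and Rps21 were more than 2-fold higher in replicate 2 of both the BMP4 and the untreated group. Rpl7, Rpl10, Rpl38 and Rps26 were more than 2-fold lower in both. These are 9.09% and 7.27% of the members, below the 11.7% and 13.4% of other promoters. No member passed 2-fold in both groups in opposite ways, against 28 of 5852 other promoters. Replicate 2 was the higher one in 72.7% of the 55 windows with both factors and 72.7% with TNFa, against 53.2% and 52.0% of other promoters. With BMP4 it was higher in 54.5%, against 50.7% of other promoters, and in untreated cells in 22 of 55, against 47.6%.

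**Figure D3:**
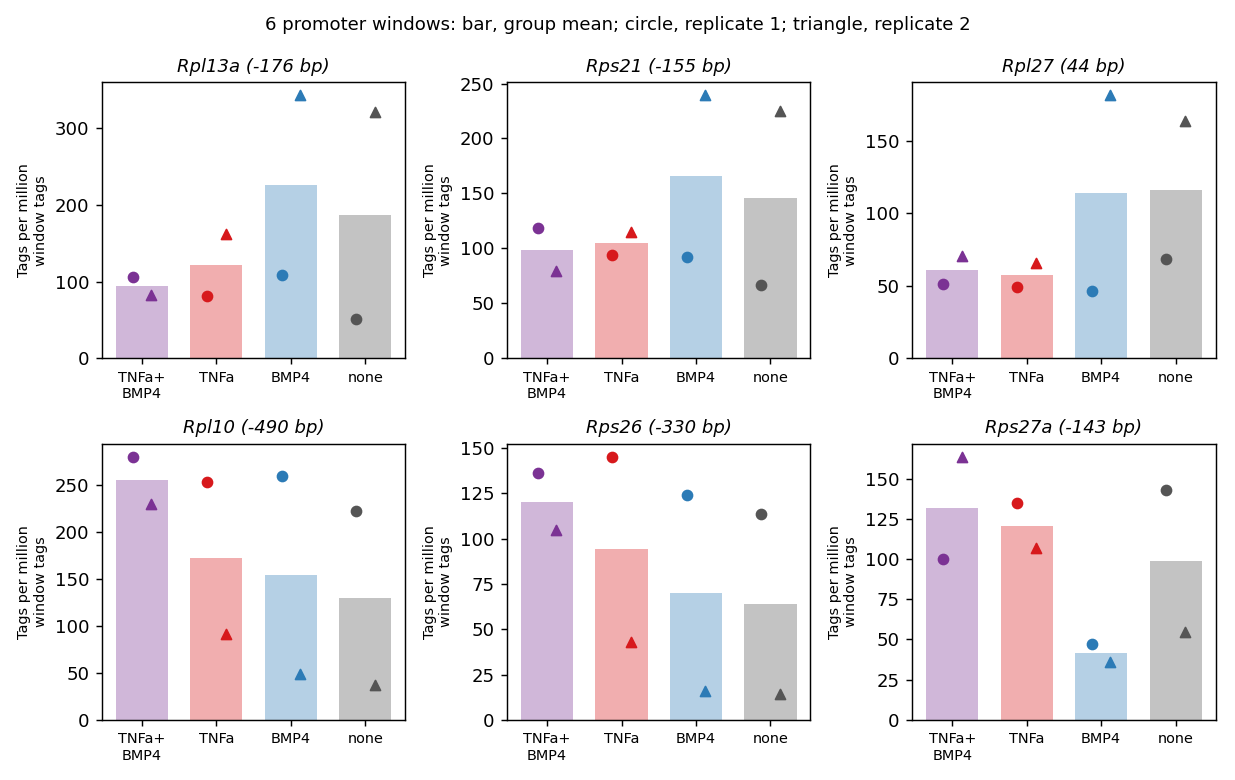
Level in CPM of 6 promoter windows in the 4 groups; bars are group means, circles replicate 1 and triangles replicate 2. Rps26 is low in replicate 2 of BMP4 (15.9) and untreated cells (14.0), where Rpl13a is high (343 and 322).

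Windows sat close to the starts of genes. Of the 55, 41 were centred within 100 bp of the start (74.5%, against 62.9% of other promoters) and 49 upstream of it (89.1% against 79.8%), with a median position of -56 bp. The 41 close windows had a median of 32.9 CPM (11.4 to 112), against 51.4 in other promoters at that distance. The 14 windows farther out had a median of 93.7 (36.0 to 178), against 75.5 in 2172 other promoters. The higher members were thus mostly the distant ones, among them Rpl10, Rpl13a, Rps21, Rpl37 and Rps26. RefSeq placed another gene under 3 of the 14 distant windows (Card6 at Rpl37, Pidd1 at Rplp2 and Clhc1 at Rps27a) and under 5 of the 41 close ones.

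**Figure D4:**
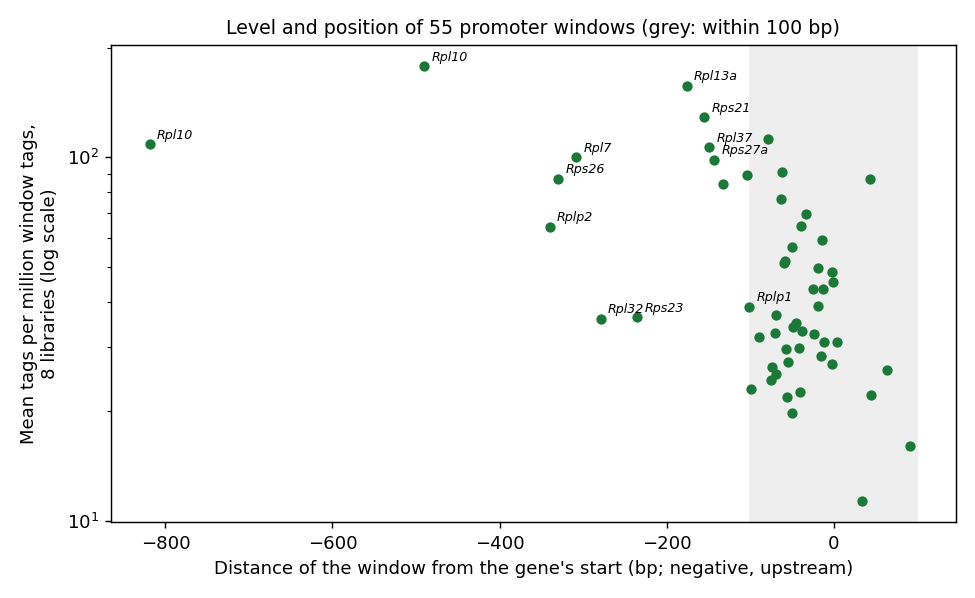
Mean level over the 8 libraries (CPM, log scale) of the 55 promoter windows against the distance of the window from the start of the gene in bp, with the stretch within 100 bp shaded. The 14 windows beyond 100 bp have a median of 93.7 and the 41 within it a median of 32.9.

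The stalk of the large subunit, which recruits elongation factors, is built from Rplp0, Rplp1 and Rplp2. Rplp0 had 22.3 and 54.6 CPM with both factors, 49.5 and 36.0 with TNFa, 30.5 and 89.0 with BMP4, against 54.6 and 78.0 in untreated cells. No library with both factors or TNFa was above the lower of the untreated ones. Rplp1 had 20.9 and 48.9 with both factors, 25.6 and 53.9 with TNFa, 21.4 and 46.4 with BMP4, against 41.8 and 51.5 in untreated cells, with all groups overlapping. Rplp2 (window at -63 bp) had 58.4 and 108 with both factors, 125 and 77.9 with TNFa, 46.3 and 45.2 with BMP4, against 103 and 48.6 in untreated cells. BMP4 gave the lowest pair of values there. Rpl5, the partner of Rpl11 in the 5S particle, averaged 31.1 over the 8 libraries, and all its groups overlapped.

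Some members have roles outside the ribosome or in signalling. Rps3, which has been described as a partner of the NF-kB subunit p65 (chr7:99483696-99483820), had 19.5 and 62.5 CPM with both factors, 47.8 and 46.7 with TNFa, 16.9 and 14.0 with BMP4, against 55.5 and 10.3 in untreated cells. The TNFa replicates were close to each other, but the untreated ones lay on either side of them. Rps6, the target of S6 kinase, had 25.04 and 47.8 with both factors, 25.6 and 47.9 with TNFa, 29.3 and 17.2 with BMP4, against 42.7 and 25.8 in untreated cells, and all groups overlapped. Rpsa, the laminin receptor precursor, stayed between 21.4 and 47.9 in every library with a mean of 32.9. Rps14 ranged from 16.9 (BMP4 replicate 1) to 108 (TNFa replicate 2) with a mean of 59.1. Rps19, the gene mutated in Diamond-Blackfan anaemia, and Rpl10a had a promoter peak in all 4 lists, but the peaks did not overlap enough to be matched and have no level here. By tags, the Rps19 peak nearest the start held 174 and 338 with both factors and 204 and 249 with TNFa. It held 370 and 429 with BMP4 and 328 and 419 in untreated cells. In the same order the Rpl10 window at -490 bp held 201 and 202, 148 and 76, 230 and 76, and 260 and 51. Rps19 was thus higher in every library but replicate 1 of the combined treatment.

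The 11 member windows outside promoters were assigned by distance only, and most lay in other genes. The 4 windows named Rpl31 were in introns of Npas2, the Rps20 window in an intron of Lyn and the Rps28 window in an exon of Kank3. The largest of all was an intergenic window named Rps24 at 303083 bp from that gene (chr14:24793774-24793898), with 245 and 358 CPM with both factors, 251 and 499.8 with TNFa, 262 and 431 with BMP4, against 415 and 541 in untreated cells. Another Rps24 window at 288560 bp averaged 163, and a window at -1934 bp from Rpl13 averaged 80.1. These windows are part of the 66 by the naming rule, and fold changes are also given for the promoter windows on their own.

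The third comparison asked whether any factor changed accessibility at these genes. No member passed an adjusted p of 0.05 in limma, fitted over all 14461 tested windows with Benjamini-Hochberg adjustment, in any of the 5 pairwise comparisons or the interaction of TNFa and BMP4. The background was 0% of all windows in each, with a lowest adjusted p of 0.898, so the absence of calls says nothing particular about ribosomal protein genes. At an unadjusted p under 0.05, limma had 0 of 66 members with both factors against none (2.49% of all windows), 0 with TNFa against none (1%), 0 with BMP4 against none (0.18%), 0 with both factors against TNFa (0.256%), 1 with both factors against BMP4 (1.6%) and 0 for the interaction (0%). With 2 libraries a group, this does not show that the groups were alike.

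That 1 window was the promoter of Rps27a, which encodes ubiquitin fused to a small subunit protein (chr11:29548121-29548245, at -143 bp). It had 100.2 and 164 CPM with both factors, 135 and 107 with TNFa, 47.4 and 36.3 with BMP4, against 143 and 54.4 in untreated cells. BMP4 was lowest in both replicates, below every library of the other groups. The log2 fold change of both factors against BMP4 was 1.58 (SE 0.62, adjusted p = 0.989 in limma), and it stayed between 1.24 and 1.92 with any 1 library left out. Against none, BMP4 had a log2 fold change of -1.06 (SE 0.62), which did not pass and ran from -1.70 to -0.37 with any 1 library left out. Clhc1 overlaps this window in RefSeq.

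With both factors against none, the median log2 fold change was -0.02 over the 66 members and -0.03 over all windows, with 33 members above 0 (48.7% of all windows). At promoters 31 of 55 were above 0 with a median of 0.06, and outside promoters 2 of 11 with a median of -0.51. Both replicates lay above both untreated ones in 5 members, Rpl21, Rpl23a, Rpl30 and both Rpl10 windows (15.5% of all windows), and below them in 7, Rplp0 and 6 windows outside promoters (17.7%). These shares were below the background. The highest fold changes were 1.499 (SE 1.16) in Rps26 and 1.44 (SE 1.02) in Rpl10, and the lowest -1.35 (SE 0.99) in the Rps24 window at 288560 bp and -1.12 (SE 0.55) in the window upstream of Rpl13. The Rpl13 window lay at chr8:123100413-123100537 in the lists with TNFa and at chr8:123100354-123100478 in the other lists. Its tags were therefore counted over partly different bases. With any 1 library left out, Rps26 ran from 0.11 to 2.93, Rpl10 from 0.22 to 2.70 and the Rps24 window from -2.27 to -0.39. The members' median was -0.24 (22 of 66 above 0) without replicate 2 of the combined treatment, 0.14 (42 of 66) without its replicate 1, and -0.17 (25 of 66) without the untreated replicate 2.

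For TNFa against none the members' median was 0.03 and that of all windows -0.02, with 35 of 66 above 0 (48.8% of all). At promoters 33 of 55 were above 0 with a median of 0.06, and outside promoters 2 of 11 with a median of -0.29. The members' median was -0.35 (18 of 66 above 0) without TNFa replicate 2, 0.27 (45 of 66) without TNFa replicate 1 and -0.13 (25 of 66) without the untreated replicate 2. No member had both TNFa replicates above the untreated ones (8.41% of all windows) and 7 had both below (11.1%), among them Rpl27, Rpl36a, Rplp0 and Rps20. The highest log2 fold changes were 0.92 in Rps26 and 0.89 (SE 0.81) in Rps3. The lowest were -1.04 in the window upstream of Rpl13 and -0.87 (SE 0.75) in Rpl27, and none passed the test. As given above, the Rpl13 window has different coordinates in the TNFa and untreated lists.

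With BMP4 against none the members leaned to lower values. Of 66 windows, 18 had a log2 fold change above 0 (27.3%, against 48.7% of all windows), with a median of -0.31 against -0.02 over all windows. At promoters 16 of 55 were above 0 with a median of -0.27, made of 10 of 37 in the large subunit (median -0.24) and 6 of 18 in the small subunit (-0.48). No member lay above the untreated libraries in both replicates (7.79% of all windows), and 9 lay below (9.27%), among them Rpl14, Rpl21, Rpl36a, Rplp2, Rps23, Rps27a and the Rps20 window in Lyn. Rps23, a protein of the decoding centre, had 12.4 and 22.9 CPM with BMP4 and 48.6 and 36.1 in untreated cells, with a log2 fold change of -1.21 (SE 0.65) that did not pass. Rpl14 had 18.1 and 27.3 with BMP4 and 60.6 and 33.1 in untreated cells. The highest were Rps29 at 0.68 (SE 0.69) and Rpl13a at 0.57 (SE 0.91).

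This lean is a description of a list and has no test. The median relative to all windows was -0.30, stayed between -0.37 and -0.14 with any 1 library left out (-0.14 without the untreated replicate 1 and -0.17 without BMP4 replicate 1), and was -0.52 without the untreated and BMP4 replicates 2, a setting chosen after seeing the data that leaves 1 library in each of these groups. Other lists had medians of -0.16 (proteasome, 11 of 27 above 0), -0.15 (ribosome biogenesis, 13 of 29), -0.05 (respiratory chain, 21 of 47), 0.0035 (mitochondrial ribosomal proteins, 21 of 41) and 0.13 (translation factors, 24 of 38) in the same comparison.

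With both factors against TNFa, the members' median was -0.02 and that of all windows 0.01, with 30 of 66 above 0 (50.8% of all windows). At promoters 27 of 55 were above 0, and outside promoters 3 of 11 with a median of -0.12. The members' median was -0.33 without TNFa replicate 1 and 0.14 without TNFa replicate 2, and for the combined treatment 0.19 without replicate 1 and -0.23 without replicate 2. Groups were apart in 4 members upward, Rpl30, Rpl36a, Rps16 and an Rpl31 window (8.28% of all), and in 1 downward (9.05%).

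With both factors against BMP4, 40 of 66 were above 0 (50.1% of all windows) with a median of 0.11, against 0.0020 over all windows. At promoters 38 of 55 were above 0 with a median of 0.39, and outside promoters 2 of 11 with a median of -0.12. For the 66 members the median was -0.05 (33 above 0) without replicate 2 of the combined treatment, 0.43 (50 above 0) without its replicate 1, 0.28 (47 above 0) without BMP4 replicate 2 and 0.05 (35 above 0) without BMP4 replicate 1, so the direction rested on replicate 2 of the combined treatment. Groups were apart upward in 13 members (12% of all windows) and downward in 6 (12.9%). Among the 13 were Rps27a, Rps3, Rps9, both Rplp2 windows and Rpl30, which had 102 and 128 CPM with both factors and 83.5 and 64.2 with BMP4. Among the 6 were Rpl13a, Rpl3, Rpl28 and Rpl37. The comparisons of BMP4 with none and of both factors with BMP4 share the BMP4 libraries. The interaction had a median of 0.26 over members and 0.04 over all windows, with 45 of 66 above 0 (54.2% of all). Without TNFa replicate 1 its median over members was -0.12, with 28 of 66 above 0.

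**Figure D5:**
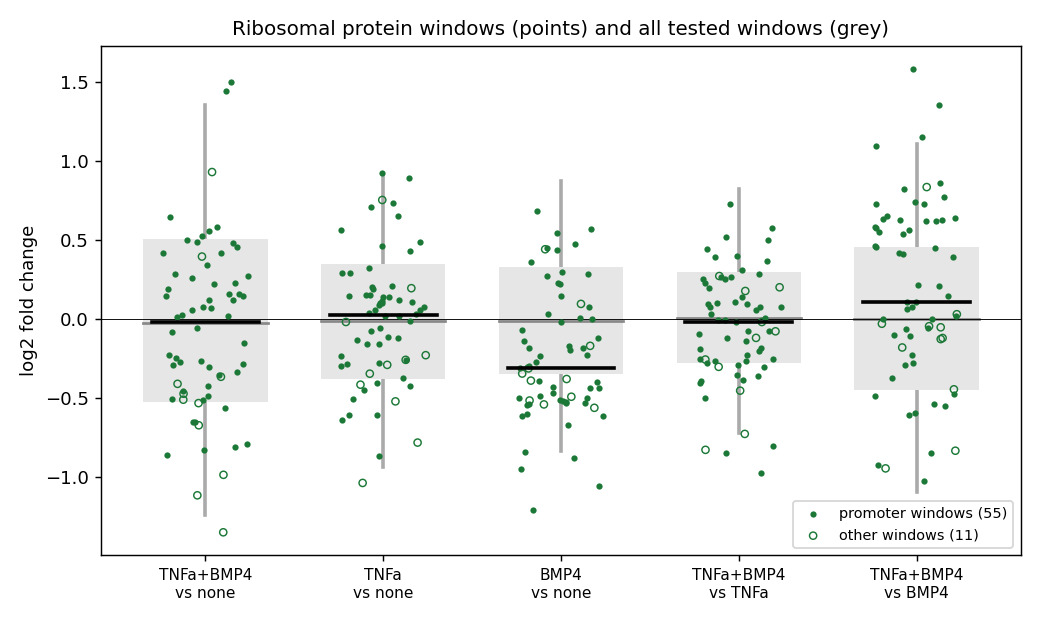
Log2 fold changes of the 66 member windows (points) in the 5 pairwise comparisons, beside the distribution of all tested windows in grey. The members' median is -0.31 for BMP4 against none and between -0.02 and 0.11 in the other 4 comparisons, and no window passed an adjusted p of 0.05 in limma.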

How the data were processed

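ATAC-seq peak lists of 4 groups were used, 2 libraries each, with 2 sonicated background libraries. The submitters' processing notes name HOMER 4.11, deepTools 3.5.1, Picard 2.25.1, Bowtie2 2.5.1, Trimmomatic 0.39 and build mm10. Nothing used here states if reads were shifted for the transposase. Peaks were called by the authors on pooled replicates against background with HOMER, per the file headers, with a deposited log2 fold, a p-value and a peak score per peak. The columns per library are named tag counts in the headers but hold regularised log2 values, fitted by the authors in each list. The equation was solved for the tag counts with 4 fitted constants per list, and 99.32% to 99.997% of values came out within 0.1 of a whole number.

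Windows were matched across lists by an overlap of at least 63 of 125 bp. Those with at least 10 tags in at least 2 libraries were tested, 14461 of 14471. limma 3.58.1 (R 4.3.3), with a mean-variance trend, was fitted on log2 of scaled counts plus 2, with group as the only term and all 8 ATAC libraries. Tests were two-sided with Benjamini-Hochberg adjustment over all windows. Fold changes are on that log2 scale and understate those of low windows. The fit was run on simulated counts as a check of the code. Those counts were drawn with less variation than the replicates here, so they do not show its power in these data. Python 3.11.15, numpy 2.4.6, scipy 1.17.1, pandas 2.3.3 and matplotlib 3.10.9 were used.

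Named windows are the 5 highest and 5 lowest matched promoters, the 2 most positive and 2 most negative windows per comparison, members with a listed role and the 3 largest windows outside promoters. Rpl7, Rpl14, Rpl30 and others named beside a count were chosen after their values were seen. Some members are counted but not reported here by name. Members and lists were chosen with earlier results of these data known. Alternatives were other pseudocounts, scalings, filters and overlaps, a replicate block and leaving out libraries.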

Additional observations from a re-analysis of the deposited data

How the results depend on the processing

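Counts of called windows stayed at 0 under all 22 alternatives of each pairwise comparison and 21 of the interaction, with a lowest adjusted p in limma of 0.0688. With 1 library left out, the members' median log2 fold change relative to all windows ran from -0.31 to 0.22 for TNFa against none (0.04 with all libraries) and from -0.12 to 0.46 for the interaction (0.22). It ran from -0.23 to 0.11 for both factors against none (0.0053 with all libraries), from -0.30 to 0.16 for both factors against TNFa (-0.03), from -0.05 to 0.41 for both factors against BMP4 (0.11) and from -0.37 to -0.14 for BMP4 against none (-0.30), so only the last kept its sign. The promoter level stayed between -0.55 and -0.42. Without replicate 2 of both the untreated and the BMP4 group, chosen after seeing the data, the medians were -0.17 for both factors and -0.10 for TNFa, each against none, 0.30 for both factors against BMP4 and 0.42 for the interaction. Identical coordinates in all 4 lists were held by 2914 windows, 14 of them members. Over these, the members' relative median was -0.23 for both factors, -0.22 for TNFa and -0.40 for BMP4, each against none. It was 0.05 for both factors against TNFa, 0.16 for both factors against BMP4 and 0.21 for the interaction. Of 415 alternative values of 20 named window comparisons, 405 kept their direction. With 1 library left out, reversals occurred in Rps3 (TNFa against none, -0.19 to 2.00), Rps26 (TNFa against none, -0.47 to 2.35; both factors against TNFa, -0.28 to 1.44; both factors against BMP4, -0.052 to 2.77), Rpl13a (BMP4 against none, -0.72 to 1.91) and Rps14 (both factors against TNFa, -1.81 to 0.12). Without those libraries, Rps3 and Rps26 gave -0.21 and -0.49 for TNFa against none, and Rps26 gave -0.050 for both factors against BMP4. The cause was not tested.

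The replicate numbers were not taken as pairs. Deviations of the replicates 2 correlated between groups at 0.10 to 0.76, and the labels do not say what a number marks. With a replicate block, 0 members were called. At an unadjusted p under 0.05 in limma the block gave 5 of 66 members for both factors against none (17.7% of all windows, lowest adjusted p = 0.0688), 1 for TNFa against none (5.99%), 1 for BMP4 against none (3.6%), 0 for both factors against TNFa (3.28%), 3 for both factors against BMP4 (10.2%) and 0 for the interaction (0.0899%). Fold changes, such as the relative median of -0.30 for BMP4 against none, cannot move with a block in this balanced design.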
